A study of Mus musculus with 2 samples.

Results

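Dense clusters of distal open chromatin were described in the limb of mouse embryos at day 14.5. A distal peak here is a 150 bp DNase-seq peak of replicate 1 that is at least 50% covered by a peak of replicate 2 and is centred over 1 kb from every protein-coding transcription start site (TSS). There were 99000 such shared distal peaks. They were stitched into groups wherever neighbouring centres lay at most 12500 bp apart, and the clusters were chosen by peak number, as the groups with 8 or more peaks. This gave 1119 clusters with 11976 members, which is 12.1% of the shared distal peaks. Both libraries come from limbs of healthy B6NCrl embryos with males and females pooled, and no other tissue, genotype or treatment was compared, so the data form 1 group with 2 biological replicates. The labels give both replicates the same donor identifier, so the spread between them may be technical, and a whole limb mixes all its cell types. The files hold 208965 peaks for replicate 1 and 196870 for replicate 2, the number of reads behind them is unknown, and a peak's signal is the authors' own whole number with no stated scaling. As a check of the label, a shared peak lay within 500 bp of the TSS of 9 of 9 limb mesenchyme genes such as Prrx1 and Hoxd13, and of 0 of 3 heart, 0 of 3 blood, 1 of 4 liver and 1 of 3 neuron genes, the last being Hnf4a and Syn1.

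DNase I cuts DNA where nucleosomes and other proteins leave it exposed, so the cut sites mark promoters, enhancers and insulators that are in use in some of the cells. Developmental genes are often read from several enhancers spread over long stretches of non-coding DNA, and runs of closely spaced enhancers near genes of cell identity have been called super-enhancers or stretch enhancers, which are usually defined by histone marks or cofactor binding and not by open chromatin alone. In the limb such stretches are known beside genes that set digit pattern, cartilage growth and the response to FGF, BMP, WNT and TGF-beta signals. Transfer RNA (tRNA) genes form another kind of dense array, in which each short gene is an open site read by RNA polymerase III from boxes inside the gene.

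The strongest members of 9 clusters are printed to show what the clusters are made of, namely those of the 5 clusters with the most peaks and of 4 clusters at limb genes. Each is the whole 150 bp peak, 5′ to 3′ on the plus strand of GRCm38 (mm10). Capitals mark letters that match a searched motif on either strand, and a sequence in lower case throughout has no match.
Mid1 cluster, chrX:170017496-170017645: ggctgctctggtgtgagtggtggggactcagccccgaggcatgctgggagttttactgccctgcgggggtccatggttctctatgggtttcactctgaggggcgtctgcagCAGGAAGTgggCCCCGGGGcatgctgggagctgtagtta
Abt1 cluster, chr13:23432656-23432805: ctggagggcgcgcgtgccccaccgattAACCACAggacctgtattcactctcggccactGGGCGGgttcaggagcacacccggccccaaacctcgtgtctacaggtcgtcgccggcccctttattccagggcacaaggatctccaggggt
Haao cluster, chr17:83861876-83862025: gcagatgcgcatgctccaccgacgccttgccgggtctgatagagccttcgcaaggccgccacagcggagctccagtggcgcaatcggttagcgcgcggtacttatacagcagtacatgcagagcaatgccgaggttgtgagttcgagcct
Firre cluster, chrX:50635336-50635485: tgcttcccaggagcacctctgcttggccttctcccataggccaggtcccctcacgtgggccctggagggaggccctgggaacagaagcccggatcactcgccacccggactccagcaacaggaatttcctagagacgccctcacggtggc
Dnm3 cluster, chr1:162217516-162217665: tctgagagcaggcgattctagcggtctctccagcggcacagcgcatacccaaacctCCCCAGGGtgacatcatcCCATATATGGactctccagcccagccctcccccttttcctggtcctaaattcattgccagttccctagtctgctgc
Bmp7 cluster, chr2:172825296-172825445: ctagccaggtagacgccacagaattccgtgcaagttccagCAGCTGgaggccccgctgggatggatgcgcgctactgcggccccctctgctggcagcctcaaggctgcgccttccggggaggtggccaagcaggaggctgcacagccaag
Etv4 cluster, chr11:101830216-101830365: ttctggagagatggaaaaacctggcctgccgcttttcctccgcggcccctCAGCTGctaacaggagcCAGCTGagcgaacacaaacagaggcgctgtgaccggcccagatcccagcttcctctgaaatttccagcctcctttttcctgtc
Lmx1b cluster, chr2:33701816-33701965: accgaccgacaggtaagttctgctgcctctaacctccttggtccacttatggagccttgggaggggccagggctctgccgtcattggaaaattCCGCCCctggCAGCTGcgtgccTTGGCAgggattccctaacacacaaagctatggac
Sox9 cluster, chr11:112779936-112780085: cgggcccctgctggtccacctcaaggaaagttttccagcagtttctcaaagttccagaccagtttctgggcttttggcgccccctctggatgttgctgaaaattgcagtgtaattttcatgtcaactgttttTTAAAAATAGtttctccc
In order, the capitals are an ETS word (CAGGAAGT) and an EBF word (CCCNNGGG) at Mid1, a RUNX word (TGTGGTT, here on the minus strand) and an SP/KLF word (GGGCGG) at Abt1, and an EBF word and an SRF match at Dnm3. They are a CAGCTG E-box at Bmp7, a pair of CAGCTG E-boxes at Etv4, an SP/KLF word, a CAGCTG E-box and an NFI word (TTGGCA) at Lmx1b, and a MEF2 match at Sox9. The Haao and Firre sequences have no match. GC content ran from 46.0% in the Sox9 sequence to 66.7% in the Bmp7 sequence. A match is a run of letters and not a shown binding site.

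The number of groups fell off with group size. Of 45398 stitched groups, 23344 were a single peak, which together held 23.6% of the shared distal peaks. The number of clusters follows the stitching distance closely, with 155 at 5 kb and 2398 at 20 kb. Among the 1119 clusters, 364 had exactly 8 peaks, 829 had 8 to 11, 250 had 12 to 19 and 40 had 20 or more, and these 40 held 993 members. The median cluster had 9 peaks in 35.6 kb, with spans from 2.33 to 154.1 kb and a peak density from 1.36 to 34.3 per 10 kb with a median of 2.76. All spans together made up 43.0 Mb, or 1.58% of the chromosomes used. Neighbouring members lay a median of 2860 bp apart, with 29.4% of gaps under 1 kb and 33.5% over 5 kb, so that a typical cluster is a spaced row of sites and not one broad open block. Hotspots, the wider regions that the authors called, covered a median of 10.8% of a cluster's span in replicate 1 and 9.98% in replicate 2.

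**Figure D1:**
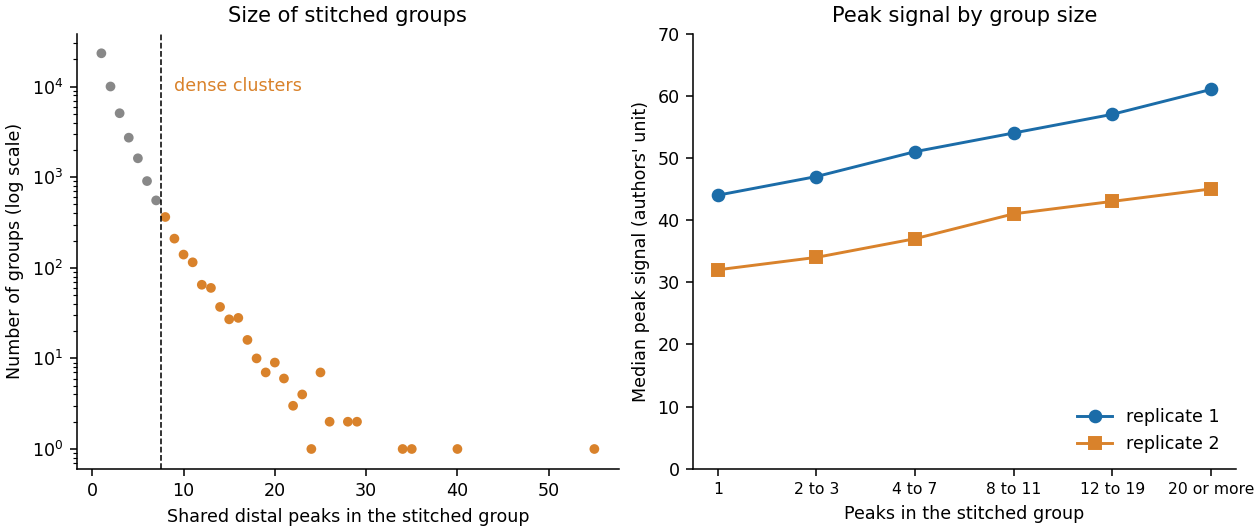
Left, the number of stitched groups (log scale) against the number of shared distal peaks in each, with the dense clusters in orange to the right of the dashed line. Right, the median peak signal in the authors' unit for peaks of groups of each size, which was 44 for single peaks and 61 for groups of 20 or more in replicate 1 (circles) and 32 and 45 in replicate 2 (squares).

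The number of peaks chose the clusters, and the groups on either side of the limit were close to each other. The 555 groups of 7 peaks had a median span of 24.8 kb, a median summed signal of 397 in replicate 1 and a median peak signal of 52 in replicate 1 and 39 in replicate 2. The 364 clusters of 8 peaks had 29.6 kb, 454.5, 53 and 40 for the same quantities. The limit of 8 thus divides a gradual scale.

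Summed signal, the sum of the authors' signal over a cluster's members, had a median of 572 in replicate 1 (170 to 3083) and of 432 in replicate 2 (86 to 2174). The sum of replicate 2 was a median of 0.758 times that of replicate 1, from 0.443 to 0.954 times over the clusters, and since the scaling of either library is unknown this ratio is no difference in openness. Clusters kept much the same order: Spearman's rho of the sums was 0.965 over 1119 clusters, in which the peak number enters both sums. For single peaks, where it does not enter, rho was 0.845 over members and 0.812 over other shared distal peaks. Of the 10 clusters with the highest sums in replicate 1, 8 were among the 10 highest in replicate 2. The strongest member held a median of 16.4% of the sum, from 4.09% to 29.3%. Every cluster has 8 or more peaks by the rule, so this share depends on the choice of clusters.

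**Figure D2:**
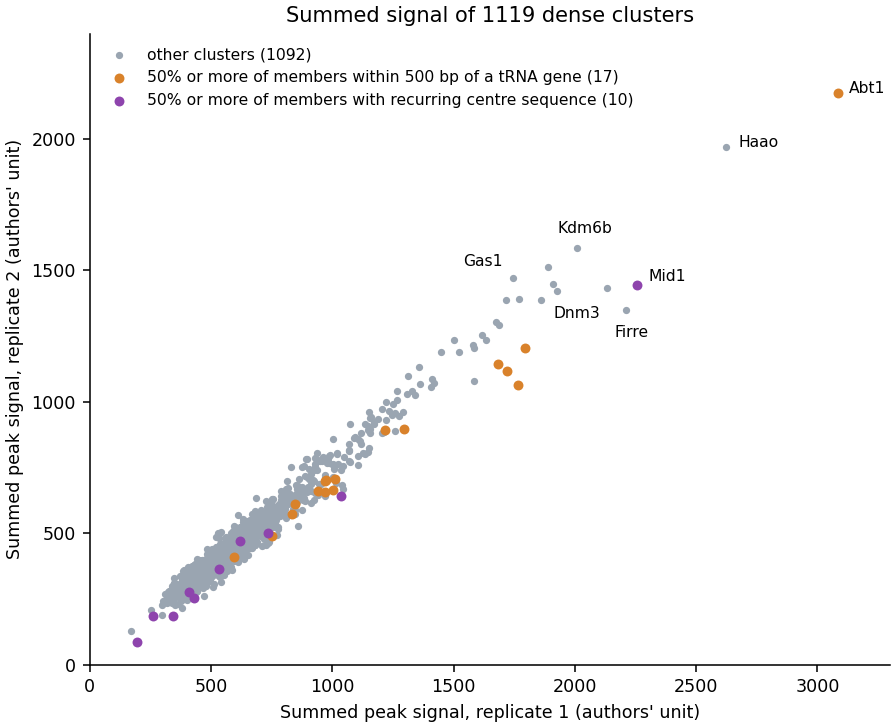
Each point is 1 of 1119 dense clusters, with the summed peak signal of replicate 1 on the horizontal axis and of replicate 2 on the vertical axis, both in the authors' unit. The cluster at Abt1, in an array of tRNA genes (orange), has the highest sum in both replicates at 3083 and 2174, and the cluster at Haao follows at 2625 and 1967. Purple marks clusters of recurring sequence, the one at Mid1 among them.

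Signals of members lay above those of other shared distal peaks in both libraries. The median was 56 against 47 in replicate 1 and 42 against 35 in replicate 2, a difference of 9 and 7, or 8 ± 1.41 (SD, n = 2). As the scaling of either library is unknown, this SD also takes in any difference of scale between them. The share of peaks in the highest 10% of signal was 15.6% of members against 9.27% of others in replicate 1, where the limit was 86, and 18.5% against 9.58% in replicate 2, where it was 62. Hotspots under members were also somewhat wider, at a median of 319 against 287 bp in replicate 1 and 287 against 257 bp in replicate 2. A hotspot at the ceiling of the authors' −log10 q-value, 100, held 50.2% of members in replicate 1, where it held 47.4% of all shared distal peaks. In replicate 2 it held 43.3% of members and 38.1% of all. These are descriptions of 2 libraries, and no test was made over peaks.

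Members lay in introns, exons and intergenic sequence in nearly the proportions of all shared distal peaks. Introns held 4892 members (40.8%) against 41.4% of all, exons 354 (2.96%) against 3.65%, and intergenic sequence 6730 (56.2%) against 54.9%. A protein-coding TSS lay within the span of 426 clusters, or 38.1%, and in 416 clusters one of these was the TSS of the gene the cluster was given to. The body of a single gene held every member of 310 clusters, and 426 clusters had intergenic members only. Each cluster was given to the protein-coding gene whose TSS is nearest to most of its members. The span lay a median of 7.23 kb from that gene's nearest TSS, up to 687.9 kb, with 139 clusters over 100 kb away. Distances between a cluster and a gene below are measured in this way. Nearness does not show which gene a site acts on.

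The clusters were given to 962 of 21938 protein-coding genes, or 4.39%, which is the background for the gene lists that follow. Of these genes 845 had 1 cluster and 117 had 2 or more. Zfp36l1, which encodes a protein that binds and destabilises messenger RNAs, and its neighbour Rad51b, a DNA repair gene, had 5 clusters each on chromosome 12. The Zfp36l1 clusters held 76 members, whose signals summed to 5023 (replicate 1) and 3883 (replicate 2). Those of Rad51b held 56 members with 3161 and 2706. Dnm3, a dynamin gene, had 4 clusters and 89 members, the most members of any gene given a cluster, with 5571 and 4339. Nfib, a transcription factor of the NFI family, had 4 clusters with 43 members, and Prickle1, a planar cell polarity gene, also had 4 with 43. Gas1, a membrane protein that takes part in hedgehog reception, had 3 clusters with 49 members and sums of 3260 and 2729.

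Limb patterning genes were given clusters in 13 of 47 cases, or 27.7%. The 13 genes had 15 clusters with 152 members, and a median of 9 peaks per cluster. The list was not adjusted for the length of DNA around each gene, and how far that length moves the share was not tested. The same holds for each list below.

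The largest cluster of this list stood beside Bmp7, which encodes a bone morphogenetic protein made in limb ectoderm and mesenchyme. It had 16 peaks in 50.6 kb on chromosome 2 (172817196 to 172867765), 72.3 kb from the gene, with a sum of 1001 in replicate 1 and 712 in replicate 2. Its members ran from 29 to 111 in replicate 1. The strongest, printed above, had 111 in replicate 1 and 78 in replicate 2 and lay 114.7 kb from the TSS in intergenic sequence.

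Lmx1b, the homeobox gene that gives the limb its dorsal identity, had 3 clusters on chromosome 2. The largest (33682356 to 33720665) had 14 peaks with a sum of 860 in replicate 1 and 526 in replicate 2. It lies 41.8 kb from the gene, and only 7 of the 14 members have Lmx1b as the nearest gene, since the other 7 lie nearer to Mvb12b. Its strongest member had 79 in replicate 1 and 37 in replicate 2. The replicates thus ranked this cluster differently, 162nd by sum in replicate 1 and 319th in replicate 2. The other two, of 9 and 8 peaks, reach into the Lmx1b body, with sums of 677 and 462 for the first and of 468 and 347 for the second in replicates 1 and 2.

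Hand2, a transcription factor of the posterior limb that acts upstream of Shh, lay inside a cluster of 14 peaks with a sum of 830 in replicate 1 and 571 in replicate 2. Zfhx3, a zinc finger homeobox gene, had 12 peaks with 718 and 488. At Hoxa13, which shapes the digits, 11 peaks gave 712 and 450, and 4 of these lay in the body of Hottip, the long non-coding RNA at that end of the HoxA cluster. Tbx15, a T-box gene of limb mesenchyme, had 10 peaks with 645 and 464. The homeobox genes Msx1, Pitx1 and En1 each had a cluster away from the gene, at 69.2, 45.8 and 139.1 kb, with 9, 9 and 8 peaks, while the cluster of 8 at Msx2 held its TSS. Prrx1 and Prrx2, which mark early limb mesenchyme, and Gli2, an effector of hedgehog signalling, had 8 peaks each. Clusters of this list thus occurred both across the gene and at a distance.

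Genes of signalling feedback and mesenchymal growth control were given clusters in 19 of 49 cases, or 38.8%, with 33 clusters and 337 members. Axin2, a feedback inhibitor of WNT signalling, had the largest, 20 peaks in 90.2 kb on chromosome 11 (108857816 to 108948045) with a sum of 1104 in replicate 1 and 794 in replicate 2. It holds the Axin2 TSS, and 6 of its members lie in the gene. Signals ran from 35 to 114 in replicate 1 and from 16 to 78 in replicate 2, and the strongest member lay in an intron 3.99 kb from the TSS.

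Etv4, an ETS factor switched on by FGF signals in the limb bud, had 16 peaks in 69.5 kb (chromosome 11, 101786756 to 101856245) starting 1.38 kb from the gene. The sum was 987 in replicate 1 and 795 in replicate 2, and the strongest member, printed above, had 108 and 92. Ror2, a receptor for WNT5A needed for limb outgrowth, had 15 peaks inside the gene over 102.5 kb, with sums of 1068 and 817. In the TGF-beta and BMP branch, the intracellular inhibitors Smad6 and Smad7, the effector Smad3, the ligand Tgfb3 and the receptors Tgfbr2 and Tgfbr3 were all given clusters. Smad3, Smad7 and Tgfbr3 had 3 each, with 29, 28 and 28 members. Hes1, a target of Notch, and Spry2, an FGF feedback inhibitor, also had 3 each, with 28 and 27 members. Some of these clusters lay in other genes. At Smad7, the cluster 49.6 kb away had 8 of 9 members in the body of Ctif. That 88.7 kb away had 8 of 8 in the body of Dym. The cluster given to Tgfb3 had 11 of 11 members in the body of Ttll5, and only 6 were nearest to Tgfb3. Of the 3 at Spry2, the farthest lay 211.5 kb from the gene and had the lowest sum, 298 in replicate 1 and 226 in replicate 2. At Nfib, 3 of the 4 clusters had their members in the gene, with 11, 11 and 10 peaks, and the fourth, of 11 peaks, lay 498.0 kb away. Ebf2, a factor of limb connective tissue, had 2 clusters in the gene, of 9 and 8 peaks, and Ebf1 had 9 peaks at 317.7 kb. Fgfr2, an FGF receptor, Nfia, a relative of Nfib, and Jun, an AP-1 subunit, had 8, 8 and 10 peaks. Genes of retinoid signalling on the list were Rarg, a receptor, and Cyp26b1, the enzyme that clears retinoic acid from the distal limb, with 11 peaks each and sums of 725 and 568 at Rarg and of 742 and 537 at Cyp26b1.

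Bone genes were given clusters in 4 of 20 cases (20%). Col1a1, the main collagen chain of bone, had 2 clusters in a row on chromosome 11. The farther one (94866676 to 94897265), 39.0 kb from the gene, had 11 peaks with a sum of 879 in replicate 1 and 665 in replicate 2. Its members had signals from 46 to 117 in replicate 1, and the strongest had 117 in replicate 1 and 91 in replicate 2. The nearer one, 1.36 kb away, had 8 peaks with 542 and 451, and its strongest member had 126 and 108. Twist2, a mesenchymal factor that restrains osteoblasts, had 13 and 8 peaks in 2 clusters, with 699 and 525 for the larger one (chromosome 1, 91658976 to 91715685), which lay 85.8 kb away. Sparc, a matrix protein of bone, had 10 peaks. The cluster given to Runx2, the master regulator of osteoblasts, had 8 peaks within the body of its neighbour Supt3, 239.9 kb from Runx2, with 403 and 291.

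Cartilage genes were given clusters in 2 of 25 cases (8%), Sox9 and Wwp2, beside the 4.39% of all genes. Sox9, the master regulator of cartilage, had 1 compact cluster across the gene, 8 peaks in 8.61 kb (chromosome 11, 112779936 to 112788545) with a sum of 461 in replicate 1 and 342 in replicate 2. Its members had signals from 45 to 81 in replicate 1, and the strongest, 2.21 kb from the TSS, had 81 in replicate 1 and 58 in replicate 2. A second cluster of 8, with 340 and 288, lay 219.1 kb away. Wwp2, a ubiquitin ligase gene that hosts the cartilage microRNA miR-140, had 8 peaks inside the gene with 388 and 302. The large collagen and aggrecan genes of cartilage, Col2a1 and Acan among them, were given none.

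Tendon, joint and connective tissue genes were given clusters in 7 of 29 cases (24.1%). Tcf7l2, a WNT effector that marks connective tissue fibroblasts of limb muscle, had 3 clusters on chromosome 19 with 31 members. The largest, 117.5 kb from the gene, had 12 peaks with a sum of 542 in replicate 1 and 503 in replicate 2, a ratio of 0.928 between replicates that is near the top of the range over clusters. The next, inside the gene, had 10 peaks with 534 and 416. Osr2, a factor of joints and connective tissue, and Col14a1, a collagen of tendon and fascia, each had 9 peaks across the TSS, and Pdgfra, a receptor of mesenchymal cells, had 9 peaks 1.39 kb from the gene, with sums of 653 and 511.

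Skeletal muscle genes were given clusters in 2 of 23 cases (8.7%). Chrna1, a subunit of the acetylcholine receptor at the muscle endplate, had 14 peaks with a sum of 940 in replicate 1 and 660 in replicate 2, and 11 of the 14 are nearest to it. Myod1, Myf5 and Pax3, the factors that set up the muscle lineage, were given none.

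Of endothelial, pericyte and blood genes, 3 of 25 (12%) were given clusters. At Cdh5, the cadherin of vessel walls, 11 peaks lay 23.3 kb from the gene with a sum of 801 in replicate 1 and 614 in replicate 2. Ets1, a factor of endothelium and mesenchyme, had 2 clusters of 11 peaks each. The far one, 262.4 kb away, had 522 and 484, a replicate ratio of 0.927, and the near one 480 and 365. Runx1, a blood factor also made in limb mesenchyme, had 9 peaks in the gene. The epidermis list had 1 of 20 (5%), Klf4, a factor of the skin barrier that mesenchyme also makes. Its 8 peaks filled 7.05 kb of intergenic sequence 112.6 kb from Klf4, and 3 neighbours had signals of 132, 113 and 86 in replicate 1 and of 103, 95 and 51 in replicate 2. Of the genes of other organs, 0 of 25 were given a cluster.

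**Figure D3:**
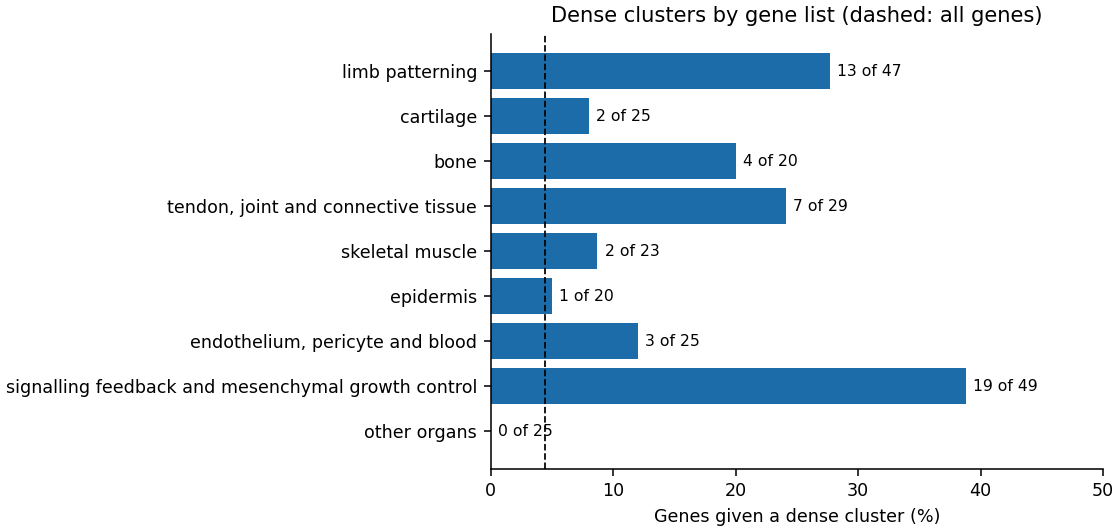
Bars give the percentage of genes in each list that were given at least 1 dense cluster, with the counts at the bar ends and a dashed line at the 4.39% of all protein-coding genes. Signalling feedback and mesenchymal growth control (19 of 49) and limb patterning (13 of 47) have the longest bars, and other organs have 0 of 25.

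The clusters with the most peaks were at other genes. After the tRNA and recurring clusters described further on, the largest was at Haao, which encodes an enzyme of the kynurenine pathway. It had 35 peaks over 140.1 kb of intergenic sequence on chromosome 17 (83850556 to 83990665), with a sum of 2625 in replicate 1 and 1967 in replicate 2. Of the members 35 of 35 have Haao as the nearest gene, 2.59 kb from the edge, and 5 long non-coding RNA genes overlap the span. Signals ran from 27 to 122 in replicate 1. The strongest member, printed above, had 122 and 84. Its centre lay 39 bp from the midpoint of a tRNA gene, the lone one of the span, so the 150 bp peak covers that midpoint. The centres of 33 of the 35 members lay over 500 bp from it.

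At Dnm3 the largest of 4 clusters had 29 peaks in 45.6 kb (chromosome 1, 162180576 to 162226125) with a sum of 1927 in replicate 1 and 1420 in replicate 2. All 29 lie in Dnm3 introns, and 11 lie in Dnm3os, the RNA on the opposite strand that carries the microRNA genes Mir199a-2 and Mir214 and is known in the skeleton and limb mesenchyme. Its strongest member had 133 in replicate 1 and 118 in replicate 2, lay 32 bp from the Dnm3os TSS and 78.0 kb from the nearest Dnm3 TSS, and bears the SRF match printed above. A TSS of a non-coding RNA is not removed by the choice of members, so the peak is distal only with respect to coding genes.

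Members of other named clusters also lay near the starts of non-coding RNA genes. On chromosome 19, a cluster given to Frmd8 had 9 peaks in 6.11 kb, of which 3 lay within 1 kb of the TSS of Neat1, an abundant nuclear RNA that starts just outside the span, with a sum of 743 in replicate 1 and 550 in replicate 2. On chromosome 7, 26 peaks over 100.6 kb (142481336 to 142581885) ran from Lsp1 past Tnnt3 and Mrpl23 to H19, the imprinted RNA that carries Mir675, with 1890 and 1513, and 4 lay in Nctc1, a muscle-expressed RNA next to H19. Over the clusters, 577 members (4.82%) lay within 1 kb of the TSS of a long non-coding RNA, against 2.85% of all shared distal peaks and 2.58% of those outside clusters, and they were in 273 clusters. Long non-coding genes overlapped 422 of the 1119 clusters, and 60 held 75 microRNA genes. Smaller groups were not counted in this way, so neither count is set against a background.

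Firre, a long non-coding RNA gene of the X chromosome that is rich in a repeated sequence, was covered by 34 peaks in 91.7 kb (50549896 to 50641585), of which 29 lay in its body. The nearest coding gene to the cluster was Olfr1324, 121.4 kb away. The sum was 2210 in replicate 1 and 1348 in replicate 2, a ratio of 0.610, which is below the lower quartile of 0.719 over clusters. Signals ran from 29 to 103 in replicate 1, and the strongest member lay 90 bp from the Firre TSS. Of the 34 members, 10 had central 31 bases that occur more than once in the genome, and 0 had a CTCF match, although Firre is known to bind CTCF at many repeats. The absence says only that the searched letters are not in these windows.

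Other large clusters differed in how many gene starts they spanned. At Kdm6b, a demethylase of histone H3 lysine 27, 25 peaks in 65.8 kb (chromosome 11, 69366556 to 69432345) spanned the starts of 5 coding genes, with a sum of 2008 in replicate 1 and 1584 in replicate 2 and a median member signal of 85 and 61. Ddit4, a stress-response inhibitor of mTOR signalling, had 25 peaks with 1912 and 1449, of which 21 were intergenic. Gse1, a nuclear protein gene, had 29 intronic peaks with 1861 and 1386. The largest of 3 clusters at Gas1 had 26 peaks over 114.3 kb of intergenic DNA on chromosome 13, 66.2 kb from the gene, with 1746 and 1471. The longest cluster, 154.1 kb, held Cxcl14, a chemokine gene, with 25 peaks and sums of 1619 and 1255, and Zcchc24, a zinc finger gene, had 25 peaks over 114.6 kb with 1584 and 1205. Densities in these last 2, 1.62 and 2.18 per 10 kb, were below the median of 2.76, so they were large by length.

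**Figure D4:**
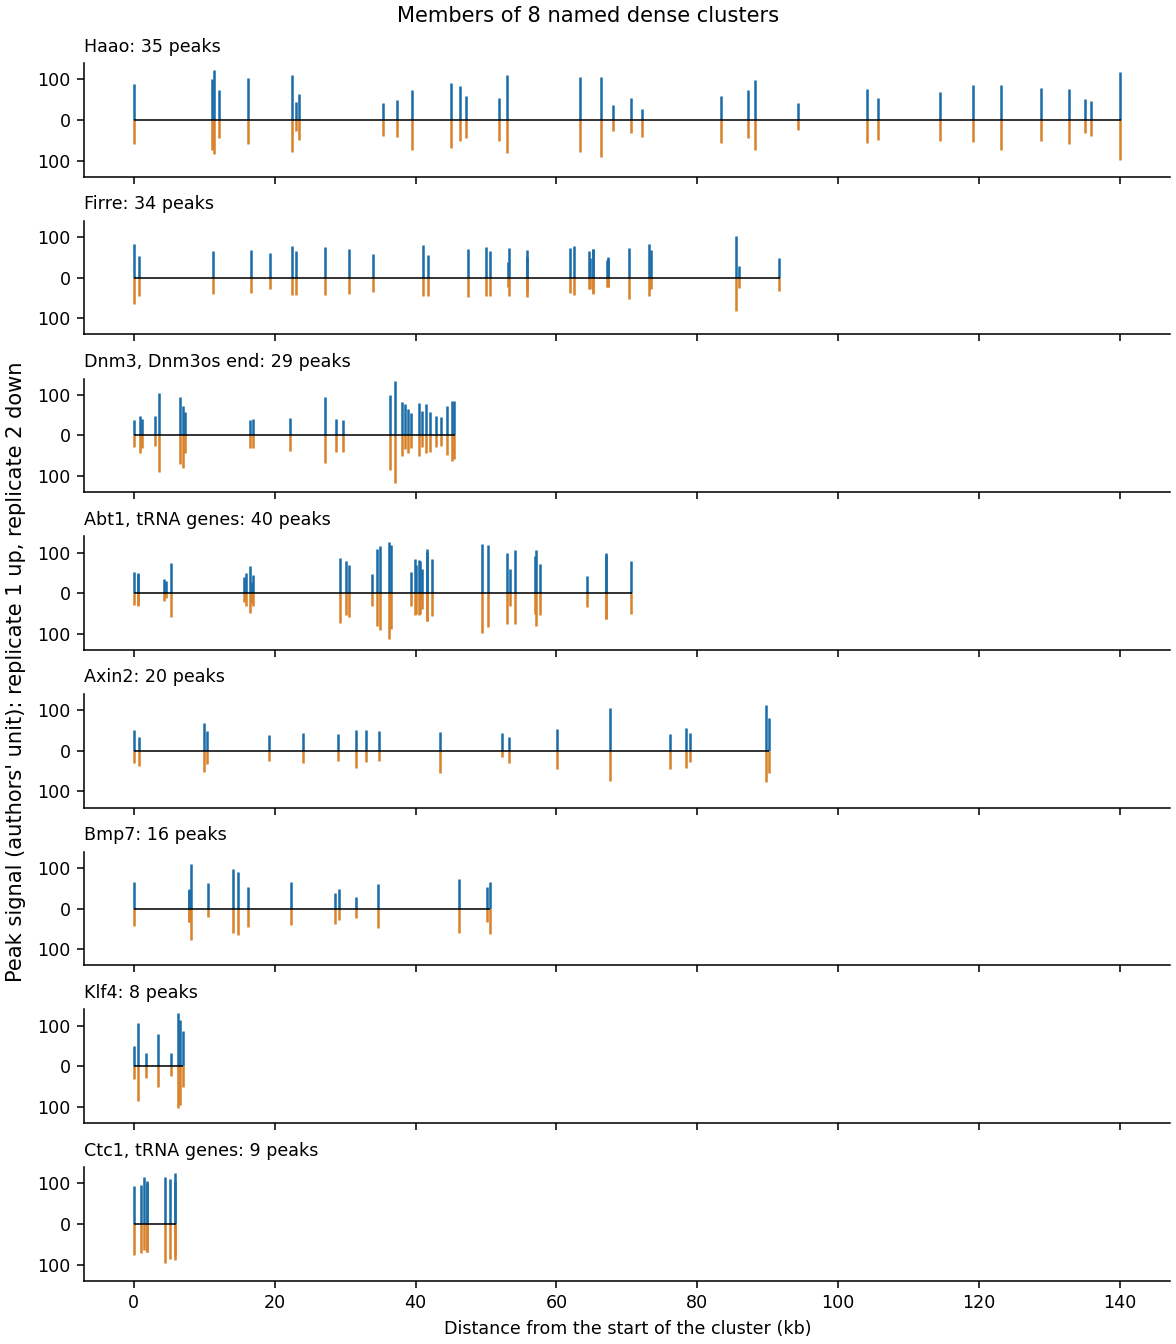
Members of 8 named clusters by distance from the cluster's start in kb, with the peak signal of replicate 1 drawn up and that of replicate 2 drawn down on the same scale in the authors' unit. The 35 peaks at Haao are spread over 140.1 kb, the 8 at Klf4 fill 7.05 kb, and the 29 at Dnm3 crowd at the Dnm3os end.

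A distinct kind of cluster lay in tRNA gene arrays. The midpoint of a tRNA gene lay within 500 bp of the centre of 233 members (1.95%), against 0.338% of all shared distal peaks and 102 peaks (0.117%) outside clusters. Members near a tRNA gene are counted in this way below. In 17 clusters with 267 members at least 50% of the members were that close, and 30 clusters had any such member. Both this kind of cluster and the recurring kind described next were defined after the values had been seen. The 17 had a median of 13 peaks, 6.35 per 10 kb, and sums of 1005 in replicate 1 and 704 in replicate 2, while the 1092 clusters of neither kind had medians of 9, 2.74, 567 and 430.5. Of the 17, 7 lay on chromosome 13, which has 105 of the 403 annotated tRNA genes and where 15.9% of shared distal peaks were members, the largest share of any autosome.

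The cluster with the highest summed signal was 1 of these. At Abt1 and Btn1a1 on chromosome 13 (23396496 to 23467165), 40 peaks had a sum of 3083 in replicate 1 and 2174 in replicate 2, with 32 members within 500 bp of a tRNA gene and 22 tRNA genes in the span. Signals ran from 28 to 126 in replicate 1. With the peaks near tRNA genes left out, 8 peaks remained, and stitching them gave groups of at most 4, so that no dense cluster was left there. Near Zfp184, 28 peaks (chromosome 13, 21896936 to 21941045) had 1795 and 1205, and 26 lay by a tRNA gene. At Ctc1 and Aurkb on chromosome 11, 9 peaks in 5.95 kb had signals from 93 to 126 in replicate 1 and from 65 to 97 in replicate 2, and 8 of them were near 1 of 7 tRNA genes. Of the 403 tRNA genes, 153 had a member within 500 bp, 224 a shared distal peak and 278 any replicate 1 peak. The tRNA B box word GGTTCGA, added to the search after values were seen, was in 1.19% of members, 0.157% of peaks outside clusters and 0.283% of all.

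Sequence that recurs in the genome was the other kind. The central 31 bases occurred more than once in 293 members (2.45%), in 1.39% of all shared distal peaks and in 1.24% of those outside clusters. In 10 clusters with 143 members at least 50% of the members were of this sort. The cluster with the most peaks of all, 55 in 59.3 kb, was one: it lies at the end of the X chromosome (169963076 to 170022345) over Mid1, a ubiquitin ligase gene at the pseudoautosomal boundary, and Gm21887, and 37 of its members lie in the Mid1 body. Of the 55, 49 had recurring central bases, where sequence that X and Y both hold also counts as recurring. Its sum was 2255 in replicate 1 and 1445 in replicate 2, although its median member signal, 36 and 23, was below that of other shared distal peaks. Without such peaks 6 remained, and stitching them gave groups of at most 3. Reads from sequence with several copies cannot be placed uniquely, and no source used here states how the authors treated them.

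The densest clusters were mostly short stretches with some recurring sequence. Near Scaf8, 8 peaks filled 2.33 kb (chromosome 17, 3083136 to 3085465, 34.3 per 10 kb), with sums of 619 in replicate 1 and 470 in replicate 2. Of these, 3 overlapped the member before them. Near Sfi1, 10 peaks filled 4.79 kb with 563 and 438, and in Tmem267, 8 peaks filled 4.11 kb with 535 and 366. In each of these 3 clusters, 4 members had recurring central bases. Over the clusters, 261 members overlapped the member before them, in 180 clusters, and 52 clusters would fall below 8 peaks if overlapping members were counted once. Each overlapping member is counted in the peak numbers, densities and sums. At Abt1 6 of 40 members were of this sort, and near Zfp184 8 of 28.

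Base composition and short sequence words differed between members and the rest, on measures the choice of members did not use. Mean GC content was 51.3% in members and 48.6% in other shared distal peaks, with 3.33 and 2.55 CpG per 150 bp, and masked repeat sequence was 9.00% and 9.14%. The SP/KLF word GGGCGG was in 8.96% of members against 6.01% of all and 5.60% of those outside clusters. The CTCF match was less frequent in members, 7.11% against 9.68% of all and 10.04% outside, and so was the NFI word TTGGCA, 15.5% against 17.5% and 17.7%. Without the tRNA and recurring clusters the SP/KLF, CTCF and NFI shares of members were 8.93%, 7.27% and 15.9%, and GC content was 51.4%. The SP/KLF word GGGCGG holds only G and C letters, while the NFI word TTGGCA mixes them with T and A. How far GC content moves these 3 shares was not tested.

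Some of the other words searched are given as the share of members, of peaks outside clusters and of all shared distal peaks. The EBF word CCCNNGGG was more frequent in members, 6.68% against 5.54% outside and 5.67% of all. The CAGCTG E-box was in 21.02% of members, 19.9% outside and 20% of all, and the AP-1 word TGANTCA in 6.26%, 6.59% and 6.55%. The RUNX word TGTGGTT was in 4.09%, 4.56% and 4.51%. Also less frequent in members than outside were the PITX word TAATCC (4.15%, 4.78% and 4.70%) and the TCF/LEF word ATCAAAG (1.85%, 2.32% and 2.27%). So was the MEF2 match (1.59%, 1.99% and 1.94%). Members and peaks outside differed by under 0.1 percentage points in the TEAD word GGAATG (13.6%, 13.5% and 13.5%). The same held for the homeodomain word TAATTA (2.81%, 2.80% and 2.81%) and the SOX word CATTGTT (2.28%, 2.28% and 2.28%). Each word was searched on both strands in the 150 bp peak, and the TEAD, RUNX, SOX and NFI words were counted wherever they occurred, overlaps with another word included.

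The differences in CTCF, NFI and SP/KLF words ran on a scale over group size. The CTCF match fell from 11.4% of single peaks to 4.63% of peaks in groups of 20 or more, the NFI word from 18.8% to 13.5%, and the SP/KLF word rose from 4.12% to 11.1%. In the groups of 20 or more, 9.67% of peaks had recurring central bases and 7.85% lay near a tRNA gene, against 0.917% and 0.0129% of single peaks. Their part in the trend in that last step was not tested.

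**Figure D5:**
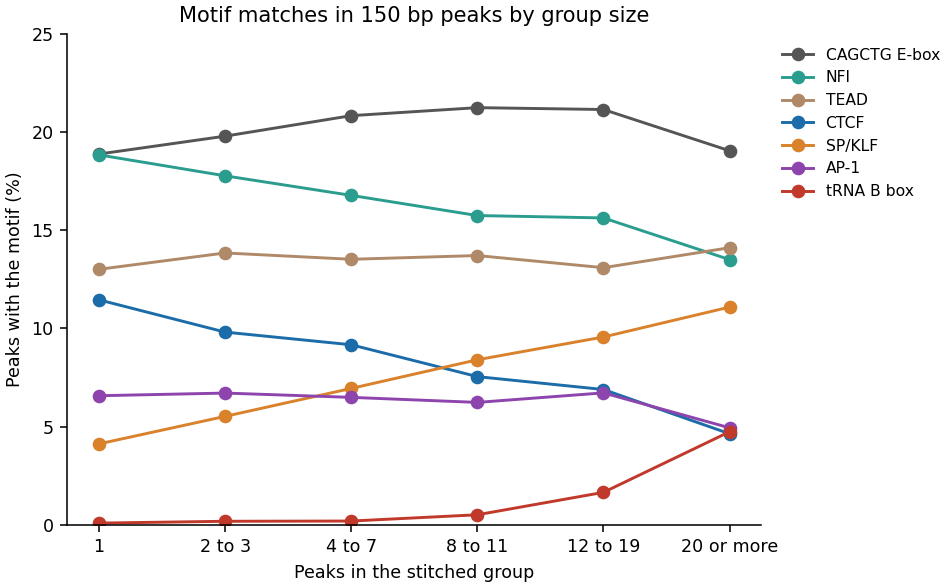
Percentage of 150 bp shared distal peaks with each motif, on either strand, by the number of peaks in their stitched group. The CTCF line goes down from 11.4% to 4.63%, the SP/KLF line goes up from 4.12% to 11.1%, and the TEAD and E-box lines stay within 13% to 14.1% and 18.9% to 21.2%.

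Chromosomes differed in the share of their shared distal peaks that were members. It was 15.9% on chromosome 13, 8.16% on chromosome 3 and 5.80% on X, where 5 clusters include those at Mid1 and Firre. On Y, 17 of 25 shared distal peaks formed 1 cluster, given to Gm21860, with a sum of 1034 in replicate 1 and 641 in replicate 2. Of its 17 members 10 had recurring central bases. Copies were counted over X and Y together, and how many of the 10 recur on X was not counted.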

How the data were processed

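DNase-seq was done on limbs of B6NCrl embryos at day 14.5 as 1 group with 2 replicates. For each library the authors deposited peaks, with a signal in whole numbers per peak, and hotspots, with a −log10 q-value that ends at a ceiling of 100. The build is mm10, per the labels. Not given in the sources used here were the aligner, the peak caller, the filters and the scaling of the signal, and the depth of the libraries is unknown. Of the peaks, 208674 of replicate 1 and 196593 of replicate 2 lie on chromosomes 1 to 19, X or Y, and these entered the work. Sharing, distance to TSSs of GENCODE M21 and stitching (12.5 kb) followed the stated rule. The signal of a member in replicate 2 is that of the covering peak, so members covered by the same peak each add its signal to the sum. Sequence, masking and 403 tRNA genes came from RefSeq for GRCm38.p6. Copies of the central 31 bases were counted on both strands of chromosomes 1 to 19, X and Y, so any copy on other sequences was missed. The work was done with Python 3.11.15, pandas 2.3.3, numpy 2.4.6 and pysam 0.24.0, and the stitching was tested on simulated data. The members and lists were chosen with earlier results of these data known, so the text gives counts and values without tests over peaks. Clusters named are the 12 with the most peaks, the 10 with the highest replicate 1 sum, the 5 densest, the 3 longest and, for each list, the 2 with the most members. Other clusters of listed genes, genes with several clusters and the cluster on Y were named after their values were seen. A total of 14 alternatives were tried, 3 of them added after seeing the data. Some of the clusters so chosen are not reported here.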

Additional observations from a re-analysis of the deposited data

How the results depend on the processing

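The 1119 clusters became 155 with stitching at 5 kb, 2398 at 20 kb, 2581 with at least 6 peaks, 290 with at least 12, 47 with the 50000 strongest peaks and 3697 to 4038 with either replicate alone (without the other replicate). Members (11976) were in that order 1530, 29654, 21303, 4509, 475 and 44877 to 49014. The share of shared distal peaks in clusters (12.1%) was 1.54%, 29.9%, 21.5%, 4.56%, 2.10% and 28.7% to 29.6%, and the median span (35.6 kb) 12.3, 62.1, 26.7, 53.0, 29.5 and 33.0 to 33.4 kb. An overlap of 1 bp gave 14.9% and 34.6 kb, TSSs over 2.5 kb away 10.3% and 34.7 kb, hotspots 9.32% and 37.8 kb, and the alternatives added after seeing the data 11.7% and 36.3 kb with 1 peak per overlapping set, 11.7% and 36.1 kb without recurring sequence, and 11.8% and 35.9 kb without peaks near tRNA genes. Clusters with a TSS in the span (38.1%) were 19.4% at 5 kb, 52.9% at 20 kb, 31.1% with at least 6 peaks, 47.2% with at least 12, 19.4% beyond 2.5 kb, 35.0% with hotspots and 35.1% to 37.7% with either replicate alone. The signal difference (9, in replicate 1) was 13 at 5 kb, and 7 at 20 kb, with at least 6 peaks and at 1 bp overlap. At replicate 2 coordinates it was 7 in the signal of replicate 2, beside the 7 of that library given above. With either replicate alone it was 4 to 6, each in that replicate's own signal. It was above 0 under each alternative that gave a value, and hotspots gave none. The limits of 6 and 12 peaks cut the same stitched groups elsewhere. The cause of the other shifts was not tested.

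Of 34 named clusters, the peak number moved by over 1.5 times for 25 at 5 kb, 32 with the 50000 strongest peaks, 12 with hotspots and 8 at 20 kb, for 13 without replicate 1 and 16 without replicate 2, for 5 without recurring sequence, and for 2 or 3 with 1 peak per overlapping set, beyond 2.5 kb or without peaks near tRNA genes. The 35 peaks at Haao, for one, became 58 without replicate 1 and 51 without replicate 2. The peak number moved that far for 0 of 34 at replicate 2 coordinates and at 1 bp overlap. Limits of 6 or 12 peaks leave the stitched groups as they are, so they could not change these peak numbers. No paired analysis was possible because the labels give 1 group, so no groups could be compared. With 2 libraries of unknown depth, a missing peak means only that none was called.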
